A study of Mus musculus with 4 samples.

Results

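Condensin and cohesin are ring-shaped protein complexes built on pairs of SMC ATPases (structural maintenance of chromosomes), and the genes for 10 of their subunits were followed here through the transcriptomes of neuron-like mouse cells. The members were picked by gene symbol, with earlier results of these libraries known: Smc2 and Smc4, the SMC pair of all condensin; Ncapd2, Ncapg and Ncaph, found only in condensin I; Ncapd3, Ncapg2 and Ncaph2, found only in condensin II; and Smc1a and Smc3, the SMC pair of cohesin. All 10 were found among the 24341 genes of the deposited table. The values that led to their choice are those of the comparison described below, so the members' differences between groups are given as a description and without p-values.

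The libraries came from CAD cells, a line of mouse brain origin with catecholaminergic traits that stops dividing and extends processes when serum is withdrawn. All cultures spent 5 days without serum. The ACSS2i group (2 libraries) received for 24 h 20 µM of an inhibitor of ACSS2, the enzyme that makes acetyl-CoA from acetate, and the DMSO group (2 libraries) received the solvent. Both groups come from 1 cell line, and no label states that replicates are separate cultures, so their spread may be technical.

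Condensin folds chromatin into the compact rods of mitotic chromosomes. Condensin II sits in the nucleus through the cell cycle and acts early in mitosis, whereas condensin I is largely cytoplasmic in interphase and reaches the chromosomes once the nuclear envelope has broken down. Cohesin holds sister chromatids together from S phase to anaphase, and in interphase, also in cells that no longer divide, it extrudes chromatin loops that end at sites bound by CTCF. A neuron has no mitosis to prepare for but keeps cohesin, and several condensin genes are known to peak in the G2 phase of dividing cells.

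Values are FPKM, which divide the fragments of a gene by transcript length and library depth, so that levels can be set side by side between genes. Low values allowed an estimate of the depth, at a nominal 7300000 and 9260000 reads in the ACSS2i libraries and 10800000 and 3150000 reads in the DMSO libraries. DMSO replicate 2 was thus the shallowest, and 1 read in a transcript of 3 kb was worth 0.0457 and 0.0360 FPKM in the ACSS2i libraries and 0.0308 and 0.106 FPKM in the DMSO libraries. FPKM summed to 558458 and 675716 in the ACSS2i libraries and to 590549 and 590108 in the DMSO libraries. Acss2 itself stood at 12.8 and 26.6 FPKM in ACSS2i and at 11.7 and 10.0 FPKM in DMSO. An inhibitor of the enzyme need not change its transcript, so this gene does not check the labels. Of the marker lists of other cell types, the 5 astrocyte, 5 microglia or macrophage and 5 fibroblast genes stayed below 1 FPKM in every library (highest 0.479 FPKM), with Col1a2 and Lum at the floor of 0.01 FPKM throughout. In the oligodendrocyte list of 5 genes, Mag was at the floor throughout, and the list summed to 4.45 and 5.22 FPKM in ACSS2i and to 5.05 and 4.87 FPKM in DMSO. The 9 neuronal and catecholaminergic markers summed to 5043 and 3750 FPKM in ACSS2i, against 7650 and 10910 FPKM in DMSO. Most of that sum was the granin Chgb, and without it the other 8 summed to 590 and 1241 FPKM in ACSS2i and to 849 and 900 FPKM in DMSO. Of the defining catecholamine enzymes Th was at 4.09 and 2.92 FPKM in ACSS2i and 3.53 and 3.16 FPKM in DMSO, while Dbh stayed under 1 FPKM.

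Across all genes, the comparison asked which transcripts differ when ACSS2 is inhibited. By limma (moderated test on log2(FPKM + 1), two-sided, Benjamini-Hochberg adjusted p under 0.05), 3 (0.0261%) of the 11486 genes whose mean over the libraries was 1 FPKM or more passed, 2 higher (0.0174%) and 1 lower (0.00871%) with the inhibitor. The gene lists described below held none of these 3 genes. In an alternative fit with short RNA genes left out, 0 of 11382 genes passed. At an unadjusted p under 0.05, 3.29% of all genes were higher and 3.67% lower. In 19.0% of all genes both ACSS2i values exceeded both DMSO values, and in 18.3% both were lower. All 10 members passed the filter on the mean, but Ncapg and Ncaph did so only through the ACSS2i libraries, since their DMSO means were below 1 FPKM, and for such genes a higher value with the inhibitor is built into the filter.

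Most condensin subunits stood higher in both ACSS2i libraries than in both DMSO libraries, with the highest fold changes in Ncapg and Ncaph of condensin I. In 7 of the 8 condensin genes both ACSS2i libraries exceeded both DMSO libraries, against the 19.0% of all genes given above. Because the genes were chosen with this contrast known, nothing is read from that count. The median log2 fold change of the 8 was 1.12, beside 0.02 over all genes tested. It was 1.82 for the 3 genes of condensin I, 1.18 for the SMC pair and 0.35 for the 3 genes of condensin II. The place of condensin I rests on Ncapg and Ncaph: with a mean of at least 5 FPKM, which leaves Ncapd2 for condensin I and Smc4 for the SMC pair, the values were 0.66 and 0.97. For the cohesin pair Smc1a and Smc3 it was 0.36. More cells that express these genes and more of their RNA per cell cannot be told apart in such bulk libraries.

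**Figure D1:**
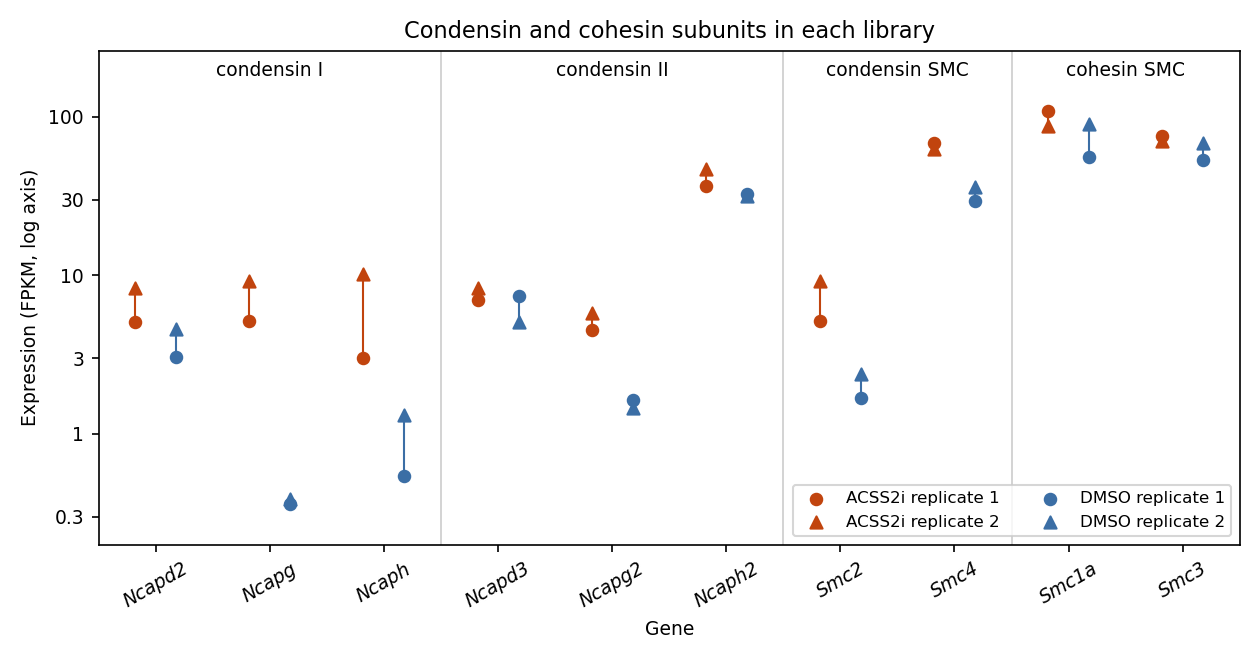
Expression of the 10 subunit genes in FPKM (log axis) in each library, with ACSS2i in orange to the left of DMSO in blue, circles for replicate 1 and triangles for replicate 2, and a line joining the libraries of a group. Ncapg shows the widest gap between groups, at 5.15 and 9.19 FPKM in ACSS2i against 0.363 and 0.389 FPKM in DMSO, whereas the ranges of the groups overlap for Ncapd3 and Smc1a.

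In condensin I, Ncapg had the highest fold change of all members. It encodes a HEAT-repeat subunit and lies on chromosome 5 at 45669919 to 45700546 (plus strand, GRCm38). Its level was 5.15 and 9.19 FPKM in ACSS2i, against 0.363 and 0.389 FPKM in DMSO. The DMSO libraries were close to each other and the lower ACSS2i library was 13.2 times the higher DMSO library. In reads this was a nominal 139 and 315 in ACSS2i and 14.5 and 4.54 in DMSO, so the DMSO values rest on few fragments. Its log2 fold change was 2.52 ± 0.34 (moderated SE, n = 2 each).

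Ncaph encodes the kleisin that closes the condensin I ring (chromosome 2, 127103809 to 127133954, minus strand). It was at 3.02 and 10.1 FPKM in ACSS2i and at 0.542 and 1.31 FPKM in DMSO. Nominal reads were 59.4 and 253 in ACSS2i but only 15.8 and 11.1 in DMSO. The groups were apart, but the ACSS2i libraries differed from each other by a factor of 3.35 and the DMSO libraries by a factor of 2.42, the widest spread within groups of any member. The log2 fold change was 1.82 ± 0.53 (SE), with 1.09 for ACSS2i replicate 1 and 2.56 for ACSS2i replicate 2 relative to the DMSO mean.

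Ncapd2, the other HEAT-repeat subunit of condensin I (chromosome 6, 125168007 to 125191701, minus strand), differed far less. Its values were 5.10 and 8.27 FPKM in ACSS2i and 3.06 and 4.61 FPKM in DMSO. The lower ACSS2i library was only 1.11 times the higher DMSO library, and the log2 fold change was 0.66 ± 0.32 (SE). Left without ACSS2i replicate 2 it was 0.35, and without ACSS2i replicate 1 it was 0.96.

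Within condensin II, Ncapg2 stood apart from its partners. This HEAT-repeat subunit (chromosome 12, 116405402 to 116463731, plus strand) was at 4.52 and 5.75 FPKM in ACSS2i and at 1.64 and 1.45 FPKM in DMSO. Replicates were close in both groups and the lower ACSS2i library was 2.76 times the higher DMSO library, with a log2 fold change of 1.27 ± 0.27 (SE).

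The kleisin of condensin II, Ncaph2 (chromosome 15, 89355719 to 89372826, plus strand), was at 36.7 and 46.5 FPKM in ACSS2i and at 32.5 and 31.8 FPKM in DMSO. The groups did not overlap, but the lower ACSS2i library was only 1.13 times the higher DMSO library (log2 fold change 0.35 ± 0.24, SE). In the GENCODE M21 annotation 19.7% of the exon bases of Ncaph2 are shared with Sco2 and 12.7% with Tymp, both on the other strand. Sco2 was at 18.4 and 17.2 FPKM in ACSS2i and at 14.8 and 16.0 FPKM in DMSO. The sources do not state whether counting used the strand, so the level of Ncaph2 is uncertain to that extent. Ncapg likewise shares 13.4% of its exon bases with Lcorl on the other strand, and Lcorl was at 16.5 and 16.1 FPKM in ACSS2i and at 15.8 and 17.0 FPKM in DMSO.

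Ncapd3, the remaining HEAT-repeat subunit of condensin II (chromosome 9, 27030175 to 27095315, plus strand), had overlapping groups. Its values were 7.01 and 8.29 FPKM in ACSS2i and 7.39 and 5.08 FPKM in DMSO, with a log2 fold change of 0.27 ± 0.27 (SE) that ran from 0.04 without DMSO replicate 2 to 0.50 without DMSO replicate 1.

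The SMC pair shared by both condensins was higher in both ACSS2i libraries for both genes. Smc2 (chromosome 4, 52439243 to 52488260, plus strand) was at 5.16 and 9.13 FPKM in ACSS2i and at 1.69 and 2.38 FPKM in DMSO (log2 fold change 1.39 ± 0.33, SE). Smc4 (chromosome 3, 69004738 to 69034623, plus strand) was far more abundant, at 67.7 and 62.1 FPKM in ACSS2i and 29.3 and 36.1 FPKM in DMSO (log2 fold change 0.97 ± 0.24, SE). The lower ACSS2i library was 2.16 times the higher DMSO library for Smc2 and 1.72 times for Smc4. Although the proteins pair 1 to 1 in the ring, Smc2 transcripts reached only 0.0762 and 0.147 of the Smc4 level in ACSS2i, against 0.0578 and 0.0661 in DMSO.

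The cohesin SMC genes were the most abundant members, and their differences between groups were small among the members. Of the log2 fold changes of all genes tested, that of Smc1a exceeded 89.7% and that of Smc3 77.5%. In condensin II the shares were 84.3% for Ncaph2 and 77.7% for Ncapd3. Smc1a, on the X chromosome at 152016428 to 152062694 (plus strand), was at 109 and 87.3 FPKM in ACSS2i and at 56.0 and 89.8 FPKM in DMSO. DMSO replicate 2 lay above ACSS2i replicate 2, so the groups overlapped, and the log2 fold change of 0.45 ± 0.31 (SE) became 0.12 without DMSO replicate 1 and 0.79 without DMSO replicate 2. Smc3 (chromosome 19, 53600398 to 53645833, plus strand) was at 75.1 and 70.3 FPKM in ACSS2i and at 53.1 and 68.0 FPKM in DMSO. Its groups did not overlap as deposited, by a factor of only 1.03 (log2 fold change 0.27 ± 0.25, SE), and they overlapped after quantile normalization or scaling to equal sums per library. Without DMSO replicate 1 the log2 fold change of Smc3 was 0.09, and without DMSO replicate 2 it was 0.44.

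Ratios within a library do not depend on how libraries were scaled to each other, apart from quantile normalization, and they show that the differences were unequal among subunits. The mean level of the 3 condensin I genes was 0.275 and 0.456 of that of the 3 condensin II genes in ACSS2i, against 0.0954 and 0.165 in DMSO. The difference in this ratio was 1.50 on the log2 scale. It ran from 1.10 to 1.89 when 1 library was left out. The lowest value was without DMSO replicate 1 and the highest without DMSO replicate 2. Most of the condensin II mean was Ncaph2, whose level is uncertain because of the genes that overlap it. On the condensin I side, Ncapg and Ncaph passed the filter only through the ACSS2i libraries. The ratio therefore does not describe all subunits alike.

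Among counterparts, the ratio of Ncapg to Ncapg2 was 1.14 and 1.60 in ACSS2i and 0.222 and 0.269 in DMSO. By these values condensin I held the more abundant of these G subunit transcripts in ACSS2i, and condensin II in DMSO. The DMSO values of Ncapg rest on a nominal 14.5 and 4.54 reads, and its exons partly overlap those of Lcorl. For the kleisins, Ncaph was at 0.0823 and 0.218 of Ncaph2 in ACSS2i and at 0.0167 and 0.0413 in DMSO. For Ncapd2 over Ncapd3 the ratio was 0.728 and 0.997 in ACSS2i and 0.413 and 0.907 in DMSO, and the groups overlapped.

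The ratio of Smc4 to Smc3, the abundant SMC partners of condensin and cohesin, was 0.902 and 0.883 in ACSS2i and 0.551 and 0.531 in DMSO. Libraries of a group were closer in this ratio than in either gene alone. Smc1a over Smc3, within cohesin, was 1.45 and 1.24 in ACSS2i and 1.05 and 1.32 in DMSO, with overlapping groups. With 2 libraries in each group the smallest p that exact permutation allows is 0.333, so these ratios were not tested.

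**Figure D2:**
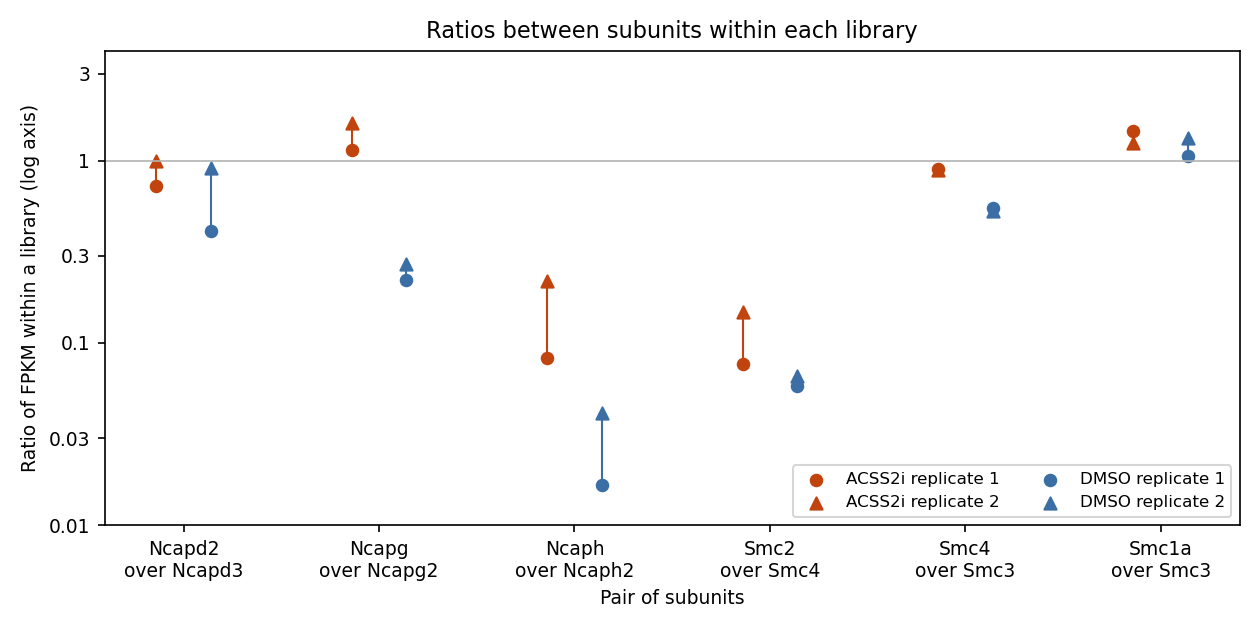
Ratio of FPKM between pairs of subunits within each library (log axis), with ACSS2i in orange to the left of DMSO in blue, circles for replicate 1 and triangles for replicate 2. Ncapg over Ncapg2 lies at 1.14 and 1.60 in ACSS2i and at 0.222 and 0.269 in DMSO, on either side of the line at 1, while Smc1a over Smc3 overlaps between groups.

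The order of the levels was the same at the top in both groups: Smc1a, Smc3, Smc4 and Ncaph2. In ACSS2i each of these 4 was separated from the next by more than the spread of the libraries. In DMSO the pairs Smc1a and Smc3, and Smc4 and Ncaph2, were not. The other 6 genes averaged 5.14 (Ncapg2) to 7.65 FPKM (Ncapd3) in ACSS2i, and no neighbours in that order were separated. In DMSO they averaged 0.376 (Ncapg) to 6.24 FPKM (Ncapd3), and every neighbour in the order from Ncapd3 through Ncapd2, Smc2, Ncapg2 and Ncaph to Ncapg was separated from the next. Members low in DMSO had the larger ratios: with the level from DMSO replicate 1 and the ratio of the ACSS2i mean to DMSO replicate 2, Spearman's rho over the 10 genes was -0.94. With the DMSO replicates exchanged it was -0.75. These are descriptions across genes of the same libraries, chosen with this contrast known, so nothing is read from them. Ncapg and Ncaph, the lowest in DMSO, passed the filter only through the ACSS2i libraries, which builds in part of this relation.

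The rest of the cohesin ring was measured as well, in genes that the choice of members did not use. This list and those that follow were still set with earlier results of these libraries known. Of the 7 other core genes, 4 were tested, 0 passed limma after adjustment (adjusted p from 0.812 to 0.965) and 0 had an unadjusted p under 0.05. The median log2 fold change of the 4 was 0.03, against 0.02 over all genes. Rad21, the kleisin of mitotic cohesin, was at 108 and 134 FPKM in ACSS2i and at 93.8 and 121 FPKM in DMSO. Its STAG partners were at 36.9 and 41.6 FPKM in ACSS2i and 28.1 and 33.2 FPKM in DMSO for Stag2, and at 11.9 and 7.95 FPKM in ACSS2i and 10.8 and 10.4 FPKM in DMSO for Stag1. Stag2 was the only one of the 4 whose groups did not overlap. Of the subunits known from meiosis, Smc1b, Stag3 and Rad21l stayed below 0.1 FPKM in every library. Rec8, the meiotic kleisin, was at 24.3 and 59.2 FPKM in ACSS2i and at 45.4 and 41.6 FPKM in DMSO. The sign of the log2 fold change turned without 1 library for Rad21 (0.17, and -0.011 without DMSO replicate 1), Stag1 (-0.11, and 0.16 without ACSS2i replicate 2) and Rec8 (-0.19, and 0.44 without ACSS2i replicate 1).

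Regulators of cohesin comprised genes with small differences between groups and genes near 0 in DMSO. Of 18 genes, 16 were tested, 0 passed limma after adjustment, and 5 (31.2%) were higher at an unadjusted p under 0.05, against 3.29% of all genes. None was lower at that level. All 5 (Dscc1, Sgol2a, Cdca5, Pttg1 and Sgol1) passed the filter only through the ACSS2i libraries, which favours such a count. Of the 11 regulators with a DMSO mean of at least 1 FPKM, 0 were higher at that level. The median of the 16 was 0.14.

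Loading and release factors differed little. Nipbl, the cohesin loader, was at 33.7 and 30.3 FPKM in ACSS2i and at 30.4 and 35.7 FPKM in DMSO. The release factor Wapal was at 23.4 and 19.9 FPKM in ACSS2i and at 16.7 and 22.4 FPKM in DMSO. Ctcf, which binds the sites where loops end, was at 34.2 and 21.9 FPKM in ACSS2i and at 26.7 and 24.0 FPKM in DMSO. The groups overlapped for these 3 genes, whose log2 fold changes of -0.041, 0.15 and 0.11 changed sign when 1 library was left out. Pds5a and Pds5b, which bind the ring with Wapal, had log2 fold changes of -0.18 ± 0.22 and 0.12 ± 0.22 (SE), with no overlap between groups for either.

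Several genes of sister chromatid cohesion and its end were near 0 in DMSO, and others of the same list were not. Dscc1, of the clamp loader that promotes cohesion at replication forks, was at 3.62 and 4.53 FPKM in ACSS2i and at 0.216 and 0.247 FPKM in DMSO (log2 fold change 2.04 ± 0.30, SE; limma adjusted p = 0.319). Sgol2a, a shugoshin that protects centromeric cohesin, was at 2.46 and 3.51 FPKM in ACSS2i and at 0.295 and 0.692 FPKM in DMSO (log2 fold change 1.42 ± 0.33, SE; limma adjusted p = 0.484). Its relative Sgol1 was at 1.04 and 2.77 FPKM in ACSS2i and at 0.0932 and 0.480 FPKM in DMSO. Cdca5, the sororin that locks cohesin after replication, was at 1.18 and 3.27 FPKM in ACSS2i and at 0.233 FPKM and the floor in DMSO.

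The securin gene Pttg1 was at 2.27 and 11.0 FPKM in ACSS2i and at 0.0535 and 1.02 FPKM in DMSO. Separase, Espl1, which cuts the kleisin at anaphase, was below the filter at 0.969 and 1.97 FPKM in ACSS2i and 0.111 and 0.212 FPKM in DMSO. Esco2, the acetyltransferase that acetylates Smc3 in S phase, was also below the filter, at 1.13 and 2.3 FPKM in ACSS2i and at 0.0883 FPKM and the floor in DMSO. The groups did not overlap for these 7 genes, and of the 16 tested regulators 6 were higher and 2 lower without overlap, against 19.0% and 18.3% of all genes. Their DMSO values rest on few reads, a nominal 3.50 and 1.17 for Dscc1 and 0.967 and 5.38 for Pttg1. Esco1, which acetylates Smc3 outside S phase, was at 10.9 and 12.3 FPKM in ACSS2i and 12.5 and 13.1 FPKM in DMSO, also without overlap. Groups overlapped for the other cohesion factors. Chtf8 and Chtf18, partners of Dscc1 in the clamp loader, were at 26.8 and 30.05 FPKM in ACSS2i and 23.9 and 40.3 FPKM in DMSO for Chtf8, and at 1.90 and 1.37 FPKM in ACSS2i and 0.437 and 1.59 FPKM in DMSO for Chtf18. The helicase Ddx11 was at 1.40 and 1.97 FPKM in ACSS2i and at 1.29 and 1.52 FPKM in DMSO. Hdac8, which deacetylates Smc3, and Mau2, the partner of Nipbl, had log2 fold changes of -0.38 ± 0.31 and -0.11 ± 0.25 (SE), likewise with overlap.

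The third SMC complex, SMC5/6, acts in DNA repair and replication. Of its 9 genes, 8 were tested, 0 passed limma after adjustment, 0 were higher at an unadjusted p under 0.05 and 1 was lower, against 3.67% of all genes. In 4 of the 8 both ACSS2i values exceeded both DMSO values, and in 1 both were lower, against 19.0% and 18.3% of all genes. Smc5 and Smc6, its SMC pair, had log2 fold changes of 0.15 ± 0.22 and 0.23 ± 0.23 (SE). The gene lower was Eid3, a paralog of the kleisin Nsmce4a, at 1.50 and 1.01 FPKM in ACSS2i and at 4.70 and 6.94 FPKM in DMSO (log2 fold change -1.58 ± 0.31, SE; limma adjusted p = 0.420). Nsmce4a was at 47.2 and 48.6 FPKM in ACSS2i and at 33.0 and 36.5 FPKM in DMSO (log2 fold change 0.45 ± 0.22, SE). Fam178a and Nsmce1 had log2 fold changes of -0.34 and 0.39, and Nsmce1 turned to -0.057 without ACSS2i replicate 2. The median of the 8 was 0.15.

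**Figure D3:**
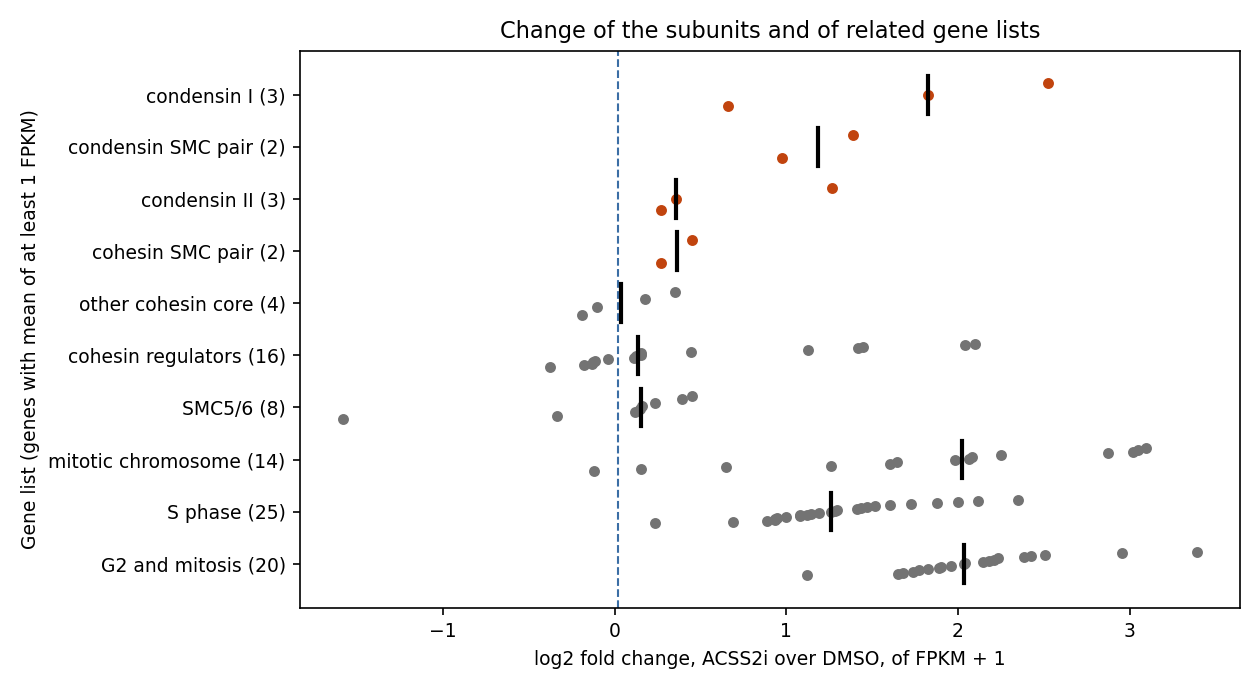
Log2 fold change of FPKM + 1, ACSS2i over DMSO, of each tested gene (points) in the 4 groups of members (orange) and in 6 related lists (grey), with the number of tested genes in brackets, black bars at the list medians and a dashed line at the median of all genes. Medians are 1.82 for condensin I, 1.18 for the condensin SMC pair, 0.35 for condensin II and 0.36 for the cohesin SMC pair, beside 2.02 for the mitotic chromosome list.

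Most genes for proteins that act with condensin on mitotic chromosomes also had higher values in ACSS2i, though not past the adjusted threshold. All 14 genes of that list were tested, 12 were higher at an unadjusted p under 0.05 (3.29% of all genes were) and 0 passed limma after adjustment. Of the 14, 10 had a DMSO mean of at least 1 FPKM, and 8 of these were among the 12. Because the list was chosen with earlier results of these libraries known, nothing is read from these counts. Top2a, the topoisomerase that works beside condensin along the chromosome axis, was at 19.6 and 44.4 FPKM in ACSS2i and at 1.71 and 4.02 FPKM in DMSO (limma adjusted p = 0.319, and 0.0336 with the replicate number as a block). The chromosomal passenger subunits Birc5 and Cdca8 had log2 fold changes of 3.09 ± 0.53 and 2.25 ± 0.36 (SE; limma adjusted p = 0.342 and 0.319), and Birc5 had 0.0336 with the block. Mki67, whose protein coats mitotic chromosomes, was at 22.2 and 24.9 FPKM in ACSS2i and at 1.18 and 4.13 FPKM in DMSO (limma adjusted p = 0.319). The groups overlapped for Top2b, the form of topoisomerase II found in cells that do not divide, and Akap8, which anchors condensin in mitosis, with log2 fold changes of 0.15 ± 0.31 and -0.12 ± 0.30 (SE). The block rests on replicate numbers that the labels do not tie to a shared culture.

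General cell cycle genes differed in the direction of the condensin genes. Their lists were also chosen with earlier results of these libraries known, so nothing is read from the counts that follow. In the S phase list 24 of 25 genes had no overlap between groups, all higher in ACSS2i, with a median log2 fold change of 1.26, against 19.0% of all genes, and 5 of the 25 passed the filter only through the ACSS2i libraries. In the list of G2 and mitosis it was 20 of 20, with a median of 2.04, and 15 of the 20 passed the filter only through the ACSS2i libraries. Neither list held a gene that passed limma after adjustment (smallest adjusted p = 0.259), while 24 and 20 genes were higher at an unadjusted p under 0.05, against 3.29% of all genes. Medians relative to the DMSO mean were 0.98 and 1.42 in ACSS2i replicates 1 and 2 for S phase, 1.41 and 2.58 for G2 and mitosis, 1.09 and 2.56 for condensin I, and 0.19 and 0.52 for condensin II. For these lists ACSS2i replicate 2 stood higher, whereas for Smc4, Smc1a and Smc3 it was ACSS2i replicate 1. The part of the number of dividing cells in the condensin values was not tested.

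Genes outside all lists were ranked by the distance of their profile over the 4 libraries from the mean profile of the 8 condensin genes (Euclidean, log2(FPKM + 1) minus the DMSO mean). The 5 nearest were Tubb5, Mis18a, Parpbp, Ckap2 and Hspa8. Tubb5, a beta tubulin, was at 333 and 518 FPKM in ACSS2i and at 174 and 189 FPKM in DMSO. Mis18a, of the complex that readies centromeres for new CENP-A, was at 2.79 and 4.65 FPKM in ACSS2i and at 1.02 and 0.995 FPKM in DMSO. The distances ran from 0.0905 (Tubb5) to 0.194 (Hspa8) log2 units. Over 4 libraries many profiles lie close together, so this is a description only.

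The promoters of the members are given because several members stood higher together and because genes of late cell cycle phases are known for a promoter element, the CHR (cell cycle genes homology region), at which the DREAM complex acts in cells that do not divide. Windows of 250 bases before to 50 after the annotated start came from RefSeq (GRCm38.p6) for 9 of the 10 genes, with Smc4 not in the table used here and with a pair of starts for Ncapd3. The CHR was searched as TTTGAA or TTCGAA on both strands, so that TTTGAA also appears as TTCAAA. Below are 5 condensin windows that hold it and the Smc3 window that does not, with these letters in capitals and every sequence written 5′ to 3′ on the strand of its gene.
Ncapg, chr5:45669675-45669974, plus strand: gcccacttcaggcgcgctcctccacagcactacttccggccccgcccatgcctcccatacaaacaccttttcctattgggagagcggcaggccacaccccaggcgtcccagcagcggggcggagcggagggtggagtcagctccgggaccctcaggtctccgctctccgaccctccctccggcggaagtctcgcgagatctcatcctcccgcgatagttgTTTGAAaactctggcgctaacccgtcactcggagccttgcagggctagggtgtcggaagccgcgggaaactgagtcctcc
Ncapd2, chr6:125191537-125191836, minus strand: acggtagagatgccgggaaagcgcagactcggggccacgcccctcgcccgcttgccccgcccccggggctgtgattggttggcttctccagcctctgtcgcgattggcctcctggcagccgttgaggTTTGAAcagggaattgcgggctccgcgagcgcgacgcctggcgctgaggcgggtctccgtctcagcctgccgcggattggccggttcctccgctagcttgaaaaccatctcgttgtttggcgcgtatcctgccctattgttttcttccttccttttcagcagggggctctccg
Ncapg2, chr12:116405186-116405485, plus strand: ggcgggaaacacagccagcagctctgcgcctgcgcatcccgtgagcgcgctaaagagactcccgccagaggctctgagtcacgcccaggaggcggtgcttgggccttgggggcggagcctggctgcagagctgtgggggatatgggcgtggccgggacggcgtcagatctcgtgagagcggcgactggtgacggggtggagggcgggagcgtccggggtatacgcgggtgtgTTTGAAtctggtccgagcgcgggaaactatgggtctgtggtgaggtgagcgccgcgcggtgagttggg
Ncaph2, chr15:89355469-89355768, plus strand: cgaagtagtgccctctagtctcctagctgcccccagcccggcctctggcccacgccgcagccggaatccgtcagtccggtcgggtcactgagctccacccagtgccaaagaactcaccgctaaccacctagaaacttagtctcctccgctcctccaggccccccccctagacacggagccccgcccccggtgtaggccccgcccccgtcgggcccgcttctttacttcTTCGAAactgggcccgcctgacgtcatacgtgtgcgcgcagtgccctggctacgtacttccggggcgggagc
Smc2, chr4:52438971-52439270, plus strand: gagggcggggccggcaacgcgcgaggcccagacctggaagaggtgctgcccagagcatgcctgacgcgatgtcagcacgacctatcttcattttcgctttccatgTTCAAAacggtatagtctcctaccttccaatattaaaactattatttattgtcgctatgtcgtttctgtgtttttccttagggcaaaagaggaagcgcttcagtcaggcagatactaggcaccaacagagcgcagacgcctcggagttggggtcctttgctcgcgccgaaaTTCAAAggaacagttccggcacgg
Smc3, chr19:53600146-53600445, plus strand: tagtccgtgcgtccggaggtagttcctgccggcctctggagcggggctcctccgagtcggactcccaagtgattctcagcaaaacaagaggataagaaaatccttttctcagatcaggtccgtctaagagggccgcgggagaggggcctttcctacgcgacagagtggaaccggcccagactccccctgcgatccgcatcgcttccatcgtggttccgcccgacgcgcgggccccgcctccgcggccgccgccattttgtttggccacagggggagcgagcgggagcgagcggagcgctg

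CHR letters were found in 6 of the 10 windows of members, against 19.2% of all 32851 promoter windows and 12.9% of the 11164 windows that belong to genes tested here. The windows with a match were those of Ncapg, Ncapd2, Ncapg2, Ncaph2, Smc2 and the downstream start of Ncapd3. In Ncapd3 the letters lay at the far upstream end of that window, and the window of its upstream start held none. The count of 6 thus includes Ncapd3 only through its downstream start. The first base of the match, counted from the start as 1 with no base 0, lay at -30 in Ncapg, -18 in Ncapg2 and -22 in Ncaph2, and farther upstream at -123 in Ncapd2. Smc2 held the letters at -145 and 27. Ncaph, Smc1a and Smc3 held none in these windows.

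The letters of an E2F site, searched as TTTNNCGC, were in 4 of the 10 windows (Ncapg, Ncapd2, Ncapg2 and Smc1a), against 8.46% of the windows of tested genes. CCAAT, the letters bound by NF-Y, was in 4 of the 10 windows (Ncapg, Ncapd2, Smc2 and Smc1a), against 38.2%. The GC box GGGCGG was in 8 of the 10 windows, against 64.0%. Each motif was searched on both strands, and no matches of different motifs overlapped in the members' windows. Windows of Ncapg and Ncapg2, the genes with a log2 fold change of 2.52 and 1.27, held both CHR and E2F letters, as did that of Ncapd2 with 0.66, while that of Ncaph, at 1.82, held neither. Ncaph2, at 0.35, held the CHR letters close to its start. A match is a description of letters, not evidence of binding.

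**Figure D4:**
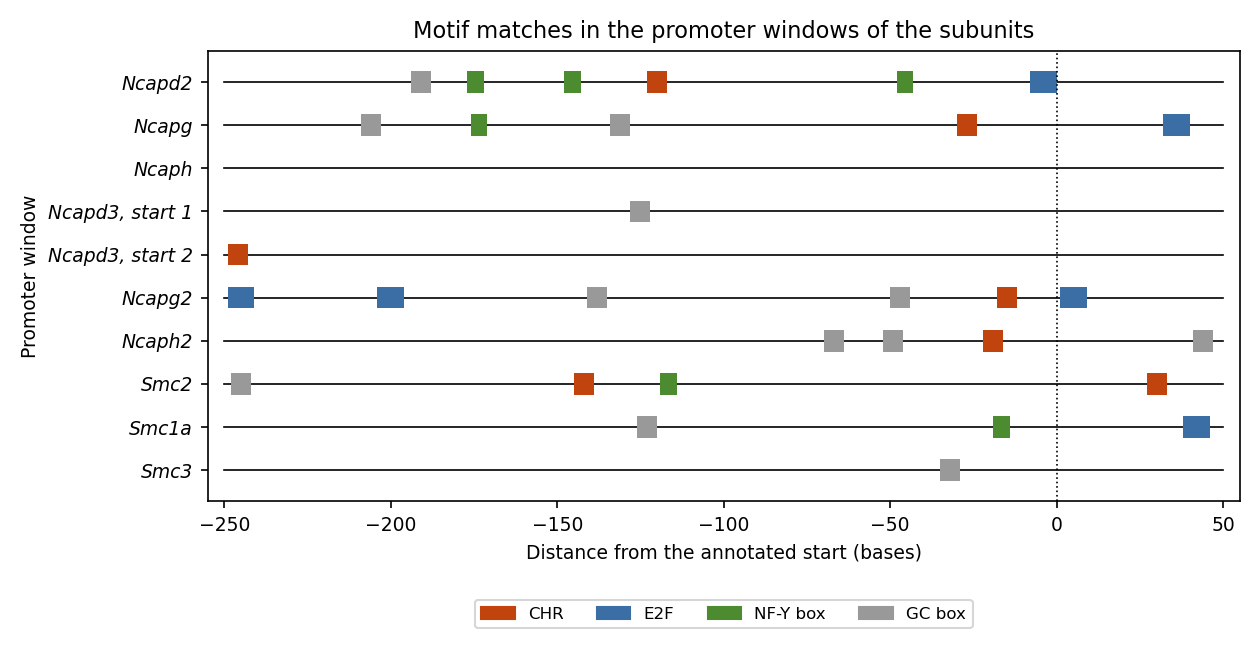
Matches of the CHR (orange), E2F (blue), NF-Y box (green) and GC box (grey) letters in the RefSeq promoter windows of 9 members, by distance in bases from the annotated start (dotted line), with a row for each start of Ncapd3. CHR letters begin at -30 in Ncapg, -18 in Ncapg2 and -22 in Ncaph2. The windows of Ncaph, Smc1a, Smc3 and the upstream start of Ncapd3 have none.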

How the data were processed

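RNA was measured in 4 libraries of CAD cells, 2 per group. Per the submitters' processing notes, the authors used Cufflinks 2.2.1 with Cuffdiff, STAR 2.3.0 and bcl2fastq 02.14.01.07, on build mm10; annotation and scaling are not given in the sources used here. Values as deposited were taken as FPKM, because the notes name Cufflinks; the table is called adjusted, and how is not stated. The lowest deposited value, 0.01, is a floor. One gene with a failed value was left out, which left 24340. Nominal depths came from values of at most 0.5 FPKM and 74 genes with a single GENCODE M21 transcript; nominal reads are FPKM times length times depth. Groups were compared with limma 3.58.1 (R 4.3.3; mean-variance trend, two-sided) on log2(FPKM + 1) for genes averaging 1 FPKM or more; this scale understates changes of low genes. The script was tested on simulated data. Coordinates are GENCODE M21 (GRCm38). Tables and figures used Python 3.11.15.

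Members, lists and settings were chosen with earlier results of these data known. Named were all members, related cohesin genes, up to 4 genes with the smallest p of the SMC5/6 and mitotic chromosome lists, Mki67, Acss2 and the 5 nearest profiles; overlapping genes, Smc5, Smc6 and marker genes, and Top2b and Akap8, were added after their values were seen. Alternatives were other pseudocounts, filters, scalings, a replicate block and leaving out each library. Protein sequences were not analysed here.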

Additional observations from a re-analysis of the deposited data

How the results depend on the processing

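All 10 members kept a positive log2 fold change under every alternative in which they were tested. For members whose groups were apart, no pseudocount and no left-out library can turn the sign. The block, the filters and the fit without a trend leave a fold change as it is. The members were also chosen with this contrast known, so nothing is read from their signs. Under the 3 other scalings (quantile, median of ratios, equal sums) 7 condensin genes stayed apart between groups. These scalings moved the median of all genes by at most 0.05. For the cohesin pair the count of genes apart was 1 as deposited and 0 after quantile normalization or equal sums. The pseudocount set much of the size. With a pseudocount of 5 the medians were 0.90 for condensin I, 0.83 for the condensin SMC pair, 0.70 for all condensin subunits, 1.02 for the mitotic chromosome list, 0.88 for S phase and 0.94 for G2 and mitosis. With 0.1 they were 1.33 for all condensin subunits, 2.90 for the mitotic chromosome list, 1.54 for S phase and 3.24 for G2 and mitosis. With a mean of at least 5 FPKM the median was 0.66 for condensin I, where Ncapd2 alone remained, 0.51 for all condensin subunits and -0.077 for cohesin regulators, and 9 related genes were higher at an unadjusted p under 0.05, against 17 in the chosen setting. When each library was left out in turn, the medians ran from -0.048 to 0.38 for the other cohesin core, from 0.037 to 0.25 for SMC5/6, from 1.27 to 2.66 for the mitotic chromosome list, from 0.98 to 1.42 for S phase and from 1.41 to 2.58 for G2 and mitosis. Signs turned in such fits for Rad21 (-0.011 to 0.36), Stag1 (-0.37 to 0.16), Rec8 (-0.82 to 0.44), Nipbl (-0.15 to 0.071), Wapal (-0.048 to 0.35), Ctcf (-0.20 to 0.42) and Nsmce1 (-0.057 to 0.84).

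The number of all genes past the adjusted threshold by limma was 3. It was 6 with a pseudocount of 0.1, 0 with a pseudocount of 5, 0 without a filter, 5 with equal sums, 0 without short RNA genes and 13 to 26 when a library was left out. At an unadjusted p under 0.05 there were 799, with 1342 without a filter and 362 to 1662 when a library was left out; there the spread comes from the group that kept both libraries. With the replicate number as a block 8 genes passed, 2 of them related genes (Top2a and Birc5) where 0 had passed. The labels do not tie the numbers to shared cultures, and the deviations of same-numbered libraries from their group means had r = -0.017 over 11486 genes, so the numbers were not taken as pairs. The causes of these moves were not tested. Precision is limited by 2 libraries per group and, for Ncapg, Ncaph and the cohesion genes, by few reads in DMSO.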

Other observations

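Small RNAs hosted by the members had no value above the floor, so whether they followed their hosts cannot be said. Mir15b and Mir16-2, inside Smc4, and Scarna10, inside Ncapd2, were listed at the floor of 0.01 FPKM in all 4 libraries, while both hosts were expressed in each. The libraries were made from polyadenylated RNA, and how such short genes were counted is not given in the sources used here.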
